A study of Mus musculus with 18 samples.

Results

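Expression of 9 genes of the p53 axis and the Cdkn2a locus was followed across 18 mouse mammary tumors. The genes were Trp53, its target genes Cdkn1a, Mdm2, Ccng1, Eda2r, Zmat3 and Phlda3, and the cell cycle inhibitor genes Cdkn2a and Cdkn2b. They were taken by gene symbol from 55450 gene rows, and all 9 were among the 18475 genes that passed the filter on low counts. By the description of the series, the tumors arose spontaneously in the mammary gland, each in a different mouse, and RNA was sequenced in bulk. All 18 mice carried the MMTV-Cre transgene and the allele that the labels write as Pikca(H1047R, het), an activating change of the PI3-kinase catalytic subunit Pik3ca. They differed by the Cbfb part of the genotype: 14 tumors were Cbfb(het), 3 were Cbfb(wt) and 1 was Cbfb(homo). Cbfb encodes the partner subunit of the RUNX transcription factors. MMTV-Cre drives Cre recombinase mainly in mammary epithelium, so other cells in a bulk tumor sample need not carry the recombined alleles. The labels give no age, sex or batch, and do not state which stretch of Cbfb was altered.

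The transcription factor p53, encoded by Trp53, halts the cell cycle or triggers cell death after DNA damage or oncogene activity. Mdm2 is both a target of p53 and the ubiquitin ligase that marks p53 for degradation. The Cdkn2a locus makes a pair of unrelated proteins from separate first exons: p19Arf, which binds and inhibits Mdm2, and p16Ink4a, which inhibits the kinases Cdk4 and Cdk6. Cdkn2b, next to it, encodes p15Ink4b, another inhibitor of these kinases. In cells without working p53, p19Arf is known to accumulate while p53 targets such as Cdkn1a are weakly expressed, so each tumor was read for high Cdkn2a together with low p53 targets.

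The transcripts of Cdkn2a are shown first because their proportions differed between tumors. The gene lies on the minus strand at chr4:89274471-89294653 (GRCm38, GENCODE M21). The first exon of the p19Arf transcript spans chr4:89294334-89294653, and that of the p16Ink4a transcript spans chr4:89281986-89282192. Their first bases are 12461 bases apart, and both are spliced to the exon at chr4:89276645-89276985. In the lines that follow, the coding part of each first exon is in lower case, and the first 45 bases of the shared exon are in capitals.
p19Arf: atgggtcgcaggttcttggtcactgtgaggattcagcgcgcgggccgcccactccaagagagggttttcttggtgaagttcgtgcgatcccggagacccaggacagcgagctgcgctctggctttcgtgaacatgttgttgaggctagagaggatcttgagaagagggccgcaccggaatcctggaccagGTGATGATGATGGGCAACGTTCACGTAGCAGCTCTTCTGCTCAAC
p16Ink4a: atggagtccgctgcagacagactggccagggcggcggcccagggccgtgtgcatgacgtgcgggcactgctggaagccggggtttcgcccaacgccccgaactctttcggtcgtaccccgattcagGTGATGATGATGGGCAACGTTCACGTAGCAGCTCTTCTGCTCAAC
The p19Arf exon holds 190 coding bases, which is 1 base past its last full codon, and the p16Ink4a exon holds 126, which is 0 bases past it. The identical capitals are therefore read in different frames.

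The stretches upstream of these starts were read from RefSeq promoter windows on GRCm38.p6, up to the base before the first annotated start. Windows were given for 8 of the 9 genes, all but Zmat3. The E2F letter patterns TTTCGCGC, TTTGGCGC, TTTCCCGC and TTTGCCGC were searched on both strands. E2F factors drive genes of DNA synthesis and are known regulators of p19Arf. At least 1 pattern occurred in 744 of 32851 promoter windows (2.26%). The 216 bases upstream of the p19Arf start (chr4:89294654-89294869, minus strand) and the 250 bases upstream of the p16Ink4a start (chr4:89282193-89282442, minus strand) are printed with the match in capitals.
p19Arf upstream: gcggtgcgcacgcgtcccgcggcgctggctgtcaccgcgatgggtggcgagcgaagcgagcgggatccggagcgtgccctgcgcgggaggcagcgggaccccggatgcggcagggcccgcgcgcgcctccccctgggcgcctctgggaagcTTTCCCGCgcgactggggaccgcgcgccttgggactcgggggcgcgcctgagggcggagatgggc
p16Ink4a upstream: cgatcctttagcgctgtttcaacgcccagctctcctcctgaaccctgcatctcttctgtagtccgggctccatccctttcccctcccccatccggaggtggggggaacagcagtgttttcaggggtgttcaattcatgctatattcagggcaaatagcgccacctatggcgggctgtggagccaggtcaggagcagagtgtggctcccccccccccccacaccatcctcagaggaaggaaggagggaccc
The p19Arf window held 1 match and 45 CpG dinucleotides, and the p16Ink4a window held 0 matches and 12 CpG dinucleotides. Among the promoters of the p53 targets, 1 of the windows of Cdkn1a (chr17:29090729-29091028) held a match to the letter pattern of a full p53 response element. The pattern is a pair of p53 decamers, each matched at every letter, separated by at most 13 bases. The Cdkn1a window at an inner start (chr17:29093519-29093818) held 0. Such a match occurred in 24 of 32851 windows (0.0731%). The Cdkn1a match, printed below as its response element, is 32 bases long (chr17:29090906-29090937, plus strand). It begins 70 bases before the outermost annotated Cdkn1a start.
Cdkn1a response element: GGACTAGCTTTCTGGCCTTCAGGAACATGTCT
A match describes these letters only and is not a measured binding site. Decamers that depart from the pattern were not searched, so the printed bases need not be the element that p53 uses.

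Sequencing depth was similar in the 18 libraries, at 33210207 to 40974130 rounded expected counts per tumor. Levels are given as deposited TPM, which corrects for transcript length and makes genes comparable. Milk protein transcripts took between 0.000664% and 15.8% of TPM, so TPM of other genes is diluted in milk-rich tumors. Differences between tumors are given on the log2 CPM scale, that is counts relative to library size after TMM scaling. The epithelial marker Epcam was 330.8 to 665.9 TPM in 13 tumors and 5.60 to 133.2 TPM in the other 5, which were Cbfb(het) 1, 10, 12 and 14 and Cbfb(wt) 2. In those 5 tumors the mesenchymal marker Vim was 2771 to 3846 TPM. All 18 tumors expressed epithelial markers above 0, but these 5 go against a mainly epithelial sample. The Cdkn2a correlations and the comparison by genotype are given with and without them. The libraries of Cbfb(het) 10 and 14 were nearly alike, with r = 0.994 over genes against 0.978 for the next closest pair, although the series gives them separate mice. With the pair summed to 1 sample, edgeR called 0 genes between Cbfb(het) and Cbfb(wt), as it did with both. An unchanged 0 cannot show how much the pair matters. Without Cbfb(het) 14, 5903 genes correlated with Cdkn2a by r (adjusted p under 0.05, permutation test), against 6700 with it.

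Trp53 (chr11:69580359-69591873, plus strand) fell into separate low and high runs of tumors. It was 5.01 TPM in Cbfb(het) 10, 5.06 in Cbfb(het) 14, 8.32 in Cbfb(wt) 2, 11.02 in Cbfb(het) 12, 12.9 in Cbfb(het) 1, 25.5 in Cbfb(wt) 1 and 26.0 in Cbfb(het) 11. In the other 11 tumors it was 46.0 to 88.5 TPM, with a median of 76.8. No tumor lay in the gap between 4.72 and 6.13 log2 CPM, which took 33.2% of the whole range of Trp53. The low run held 5 of the 14 Cbfb(het) and 2 of the 3 Cbfb(wt) tumors. The Cbfb(homo) tumor stood in the high run at 85.2 TPM. Its SD over tumors, 1.58 log2 CPM, exceeded that of 92.7% of tested genes whose mean log2 CPM was 1 or more.

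Cdkn2a varied more than any other of the 9 genes, with an SD of 2.28 log2 CPM that exceeded that of 97.2% of these genes. It was 763.2 TPM in Cbfb(het) 1, 494.7 in Cbfb(het) 12, 283.3 in Cbfb(wt) 2, 214.6 in Cbfb(het) 14, 192.2 in Cbfb(het) 10, 164.7 in Cbfb(wt) 1 and 113.2 in Cbfb(het) 11. These 7 tumors are the same 7 that held the lowest Trp53. Cdkn2a was 59.0 TPM in the Cbfb(homo) tumor and 5.14 to 21.6 TPM in the remaining 10 tumors. Cdkn2a itself formed no separate runs: its widest gap took 16.4% of its range, under the 25% used to separate runs.

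Within the runs no relation of Cdkn2a and Trp53 passed the test. In the low run Pearson's r was -0.27 and Spearman's rho was -0.29 (n = 7; adjusted p of 0.781 and 0.718, exact permutation test, two-sided). In the high run r was 0.24 and rho was 0.41 (n = 11; adjusted p of 0.998 and 0.777, permutation test). No r over all 18 tumors is given for Trp53, because it falls into separate runs. No gene among the 18474 others correlated with Trp53 within either run by r or rho (0% called). At an unadjusted permutation p under 0.05 there were 3295 genes by r in the low run and 386 in the high run.

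**Figure D1:**
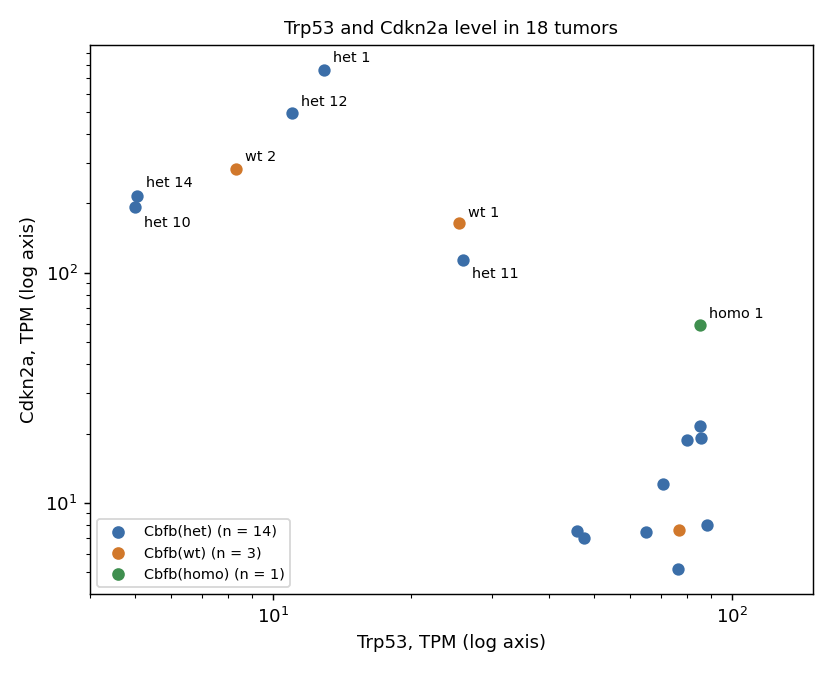
Trp53 against Cdkn2a in 18 tumors, both as deposited TPM on log axes, with 1 point per tumor coloured by Cbfb label. The 7 tumors with Trp53 of 5.01 to 26.0 TPM hold the 7 highest Cdkn2a values, 113.2 to 763.2 TPM, and the Cbfb(homo) tumor combines Trp53 of 85.2 with Cdkn2a of 59.0.

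Cell makeup moved with this split. Summed over 8 epithelial markers, TPM was 121.3 to 4032 in the 7 low-Trp53 tumors and 2494 to 6096 in the other 11. Summed over 9 fibroblast and mesenchymal markers it was 625.6 to 23650 and 294.8 to 2980, respectively. All 8 epithelial markers were inversely correlated with Cdkn2a over 18 tumors, and 7 of 9 fibroblast and mesenchymal markers were positively correlated (adjusted p under 0.05, permutation test). Over all genes 16.8% passed as positive and 19.4% as inverse. Milk protein genes were inverse in 6 of 6, and leukocyte and endothelial markers were positive in 5 of 9 and 4 of 6. In bulk RNA, fewer cells of a type and less RNA per cell cannot be told apart. Cbfb(wt) 1 and Cbfb(het) 11 belonged to the low-Trp53 tumors with Epcam of 615.8 and 478.1 TPM, within the range of the 11 high-Trp53 tumors. Other markers placed them at or near the low end. The mean log2 CPM of the 8 epithelial markers was 8.616 and 8.015 in them, against 8.209 to 9.448 in the high-Trp53 tumors. Summed milk protein TPM was 2834 and 1821, against 2451 to 158300. Their Cdkn2a, 164.7 and 113.2 TPM, was above that of the other epithelial tumors. Without the 5 tumors of low Epcam, the 2 lowest Trp53 values of 13 tumors thus still coincided with the 2 highest Cdkn2a values. How far cell makeup accounts for the levels of the 5, or of Cbfb(wt) 1 and Cbfb(het) 11, was not tested.

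The gene that overlaps Trp53 did not share its split. Wrap53, which overlaps Trp53 on the opposite strand and encodes a telomerase and Cajal body protein, was 7.59 to 14.45 TPM over all 18 tumors. The low-Trp53 tumors Cbfb(het) 14 and Cbfb(wt) 2 had 7.59 and 14.4 TPM, close to the bottom and top of that range. The sources used here do not state whether reads were counted by strand, so reads from the overlap could be assigned to either gene. The mean length of the Trp53 transcripts, weighted by their shares, was 1781 to 1848 bases and that of Mdm2 was 2254 to 2755 bases.

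**Figure D2:**
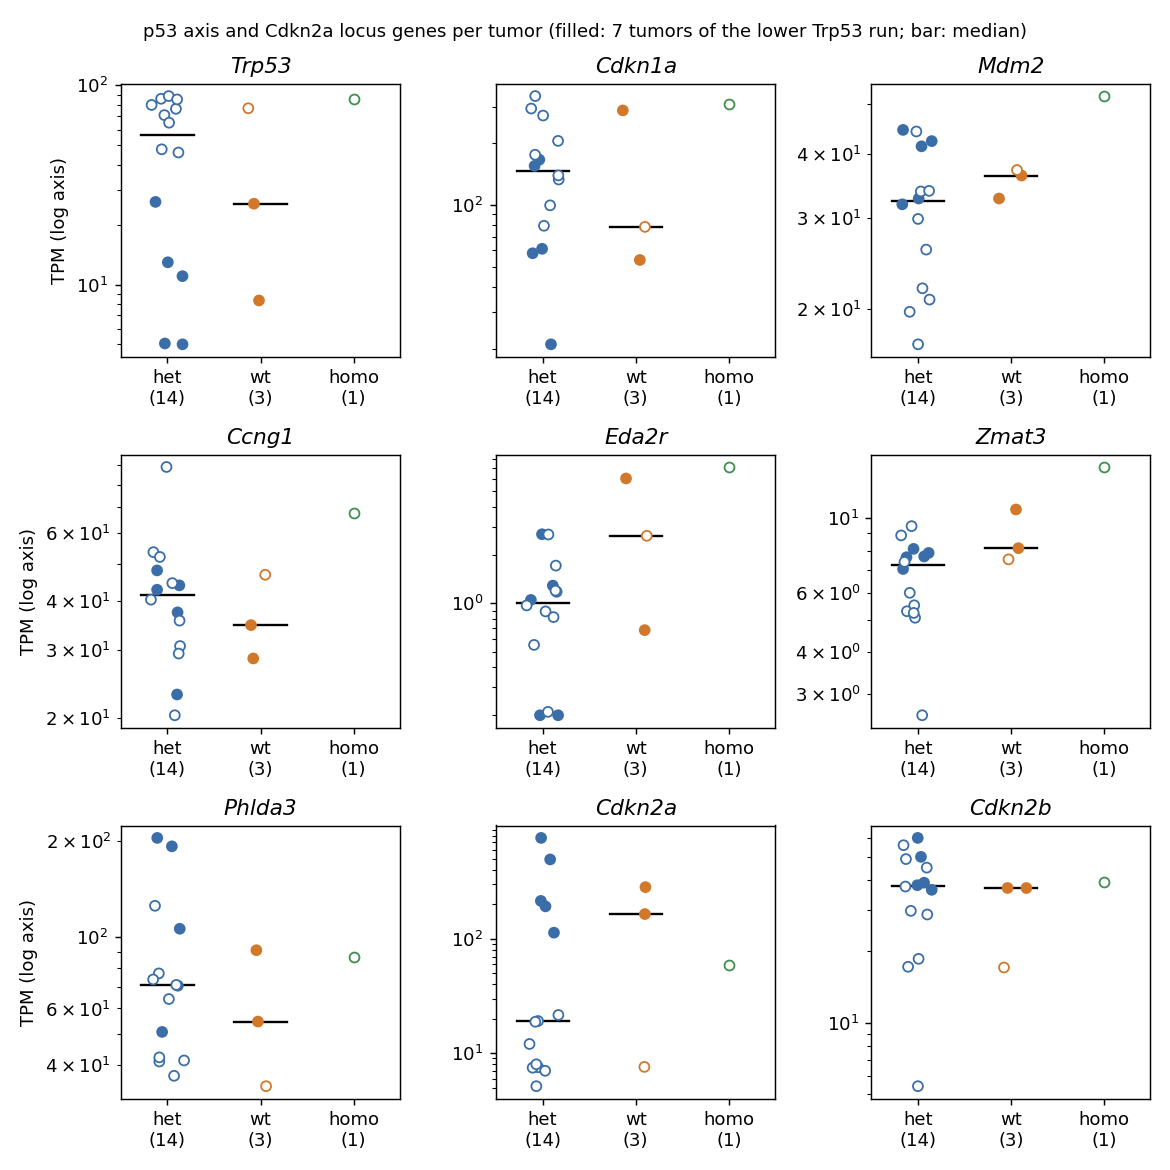
Level of each of the 9 genes per tumor, as deposited TPM on a log axis, in the 14 Cbfb(het), 3 Cbfb(wt) and 1 Cbfb(homo) tumors, with a bar at the group median. Filled points are the 7 tumors with Trp53 of 5.01 to 26.0 TPM. They hold the 7 lowest Trp53 and the 7 highest Cdkn2a values, and lie among the other tumors for Mdm2 and Zmat3.

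The 6 p53 targets did not move as a block. Cdkn1a (chr17:29090976-29100727, plus strand) encodes p21, the CDK inhibitor that carries out p53-dependent cell cycle arrest. It was 20.97 TPM in Cbfb(het) 12, 54.0 in Cbfb(wt) 2, 58.2 in Cbfb(het) 10 and 61.2 in Cbfb(het) 14, the lowest 4 values of the 18. In the 3 other tumors with low Trp53 it was 154.8 TPM in Cbfb(het) 11, 166.0 in Cbfb(het) 1 and 288.2 in Cbfb(wt) 1. In the 11 tumors with higher Trp53 it was 78.2 to 338.5 TPM, so these 3 fell inside that range. Its highest value was 338.5 TPM in Cbfb(het) 13.

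Mdm2 (chr10:117688875-117710758, minus strand) was the steadiest of the 9 genes, with an SD of 0.30 log2 CPM. It was 17.1 to 44.5 TPM in the Cbfb(het) tumors, with a median of 32.3. It was 32.8, 36.3 and 37.2 TPM in the Cbfb(wt) tumors and 51.8 TPM in the Cbfb(homo) tumor. The tumors with the lowest Trp53, Cbfb(het) 10 and 14, had 42.3 and 44.5 TPM, above the median of 33.3 TPM. Zmat3 (chr3:32334792-32366014, minus strand), which encodes an RNA-binding tumor suppressor, was similarly narrow: 2.60 to 9.46 TPM in Cbfb(het), 7.54, 8.14 and 10.6 TPM in Cbfb(wt) and 14.2 TPM in Cbfb(homo).

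Ccng1 (chr11:40748552-40755311, minus strand), which encodes cyclin G1, a regulator of Mdm2 through the phosphatase PP2A, was 20.3 to 89.0 TPM in Cbfb(het) tumors with a median of 41.6. In the Cbfb(wt) tumors it was 28.5, 34.7 and 46.9 TPM, and in the Cbfb(homo) tumor 67.8 TPM. The low-Trp53 tumors lay between 23.0 and 48.1 TPM, among the others. On the log2 CPM scale, which milk transcripts dilute less, the 4 lowest values were those of the low-Trp53 tumors Cbfb(het) 1 (5.71), Cbfb(wt) 1 (5.91), Cbfb(wt) 2 (6.18) and Cbfb(het) 11 (6.22). The next was 6.28 in Cbfb(het) 9, and the other 3 low-Trp53 tumors had 6.45 to 6.68. Phlda3 (chr1:135766119-135769136, plus strand), an inhibitor of Akt at the membrane, was highest in the tumors with least Trp53, at 204.4 TPM in Cbfb(het) 14 and 192.4 in Cbfb(het) 10. Elsewhere it was 34.3 to 125.5 TPM.

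Eda2r (chrX:97333840-97377216, minus strand), a receptor for ectodysplasin A2, had the lowest level of the 9 genes in all 18 tumors and a wide spread. It was 0.200 TPM in Cbfb(het) 10 and 14 and 0.210 TPM in Cbfb(het) 8, and up to 2.7 TPM in the other Cbfb(het) tumors. The Cbfb(wt) tumors had 0.680, 2.64 and 6.02 TPM, and the Cbfb(homo) tumor had 7.10 TPM. Cbfb(wt) 2, with 6.02 TPM, was a low-Trp53 tumor, so low and high Eda2r both occurred beside low Trp53. Counts ran from 17 to 717, so the low end rests on few reads.

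Over the 15 pairs of the 6 targets, Spearman's rho over tumors was -0.55 to 0.63 with a median of 0.15, and 11 pairs were positive. These are given as a description, since all pairs share the same 18 libraries. None of the 7 other members passed the correlation test with Cdkn2a, where Trp53 is left aside because of its runs. In the same test 36.3% of all other genes passed by r and 28.7% by rho, so 0 of 7 is below the background. The closest were Ccng1, with r of -0.50 and rho of -0.53 (adjusted p of 0.0707 and 0.0748, permutation test), and Cdkn1a, with r of -0.48 and rho of -0.40 (adjusted p of 0.0871 and 0.206). For Phlda3 r was 0.40 and rho 0.44 (adjusted p of 0.189 and 0.151, permutation test). For Mdm2, Eda2r and Zmat3 r was 0.10, -0.12 and 0.18. Without Cbfb(het) 1 and 12, the tumors farthest from the median of Cdkn2a, the count of members past the threshold was again 0. Within the 14 Cbfb(het) tumors Cdkn1a was the only 1 of these 7 to pass, with r of -0.63 (adjusted p = 0.0482, permutation test). There 5468 of 18474 genes passed, a larger share than 1 of 7. Without the 5 tumors of low Epcam r was 0.22 for Cdkn1a (adjusted p = 0.737, permutation test).

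Each tumor was then read for the combination of high Cdkn2a and low targets. High Cdkn2a was set at 1 log2 unit or more above the median of 18 tumors, and low targets at a mean deviation of the 6 targets from their own medians of -0.5 or lower. Of 8 tumors with high Cdkn2a, 1 met both limits. None did on the log2(TPM + 1) scale or by the median over the 6 targets, and 7 did with the target limit at 0. The tumor that met both was Cbfb(het) 12, with Cdkn2a 4.14 above its median, a target score of -0.71 and Trp53 3.11 below its median (-3.11). Its score rested mainly on Cdkn1a, which deviated by -3.36, with Phlda3 at -0.76, Mdm2 at -0.39, Zmat3 at -0.22, Ccng1 at -0.17 and Eda2r at 0.62. A further 6 of the 8 had scores below 0, from -0.35 in Cbfb(het) 14 to -0.0091 in Cbfb(het) 1. Scores below 0 also occurred in 6 of the 10 tumors without high Cdkn2a, and Cbfb(het) 8 reached -0.41 there.

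The remaining tumor with high Cdkn2a was Cbfb(homo), whose score of 0.91 was the highest of the 18. All 6 targets lay above their medians there, and its Mdm2, Eda2r and Zmat3 were the highest values measured. Its Cdkn2a was 1.33 and its Trp53 0.10 log2 units above the median. With no replicate of this genotype, these values describe 1 tumor. Over the 18 tumors the target score and Cdkn2a had r of -0.28 and rho of -0.26, given without a test.

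**Figure D3:**
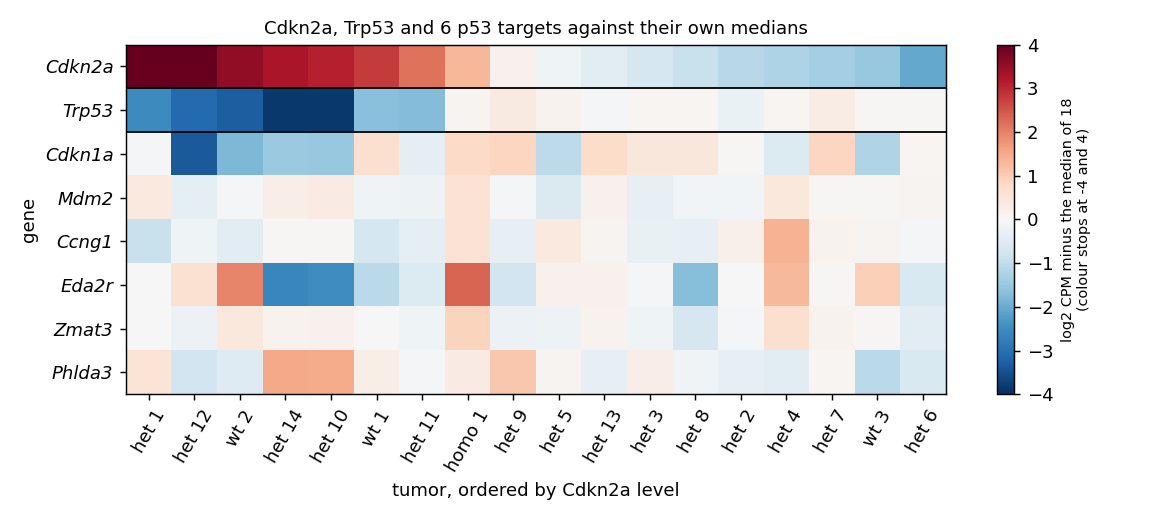
Deviation of Cdkn2a, Trp53 and the 6 p53 targets from their own medians over 18 tumors, in log2 CPM, with tumors ordered by Cdkn2a and red for higher and blue for lower. Low Trp53 runs across the 7 leftmost tumors, while the targets are mixed: only Cbfb(het) 12 reaches a mean target deviation of -0.71, and Cbfb(homo) 1 is above its medians in all 6 targets.

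The proportion of the Cdkn2a transcripts split the high-Cdkn2a tumors further. The gene has 2 annotated transcripts, p16Ink4a with 852 bases and p19Arf with 895 bases, so the deposited mean transcript length gives their shares. The p19Arf share was 98.9% in Cbfb(wt) 2, 90.8% in Cbfb(wt) 1, 90.3% in Cbfb(het) 11 and 75.7% in Cbfb(het) 12. It was 57.8% in Cbfb(het) 10, 57.6% in Cbfb(het) 14, 54.5% in Cbfb(homo) 1 and 52.6% in Cbfb(het) 1. In the other 10 tumors it was 71.6% to 92.2%, estimated from 96 to 447 counts of the whole gene. The p19Arf transcript was thus the larger share in all 18 tumors.

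In absolute terms, p16Ink4a was 361.6 TPM in Cbfb(het) 1, 120.3 in Cbfb(het) 12, 91.0 in Cbfb(het) 14 and 81.1 in Cbfb(het) 10. It was 26.8 TPM in Cbfb(homo) 1, 15.1 in Cbfb(wt) 1, 10.98 in Cbfb(het) 11 and 2.97 in Cbfb(wt) 2. The remaining 10 tumors had 0.622 to 5.28 TPM. Cbfb(wt) 2 therefore combined one of the highest p19Arf levels, 280.3 TPM, with a p16Ink4a level inside the range of the tumors with little Cdkn2a. By contrast Cbfb(het) 1 had 401.7 TPM of p19Arf and nearly as much p16Ink4a. Shares from the deposited effective length differed by at most 0.0233 percentage points. Both lengths are weighted by the same estimated shares, so this is no separate check of them. Reads on the shared exons cannot tell the transcripts apart, and the number that can is not in the gene tables, so no interval is given.

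**Figure D4:**
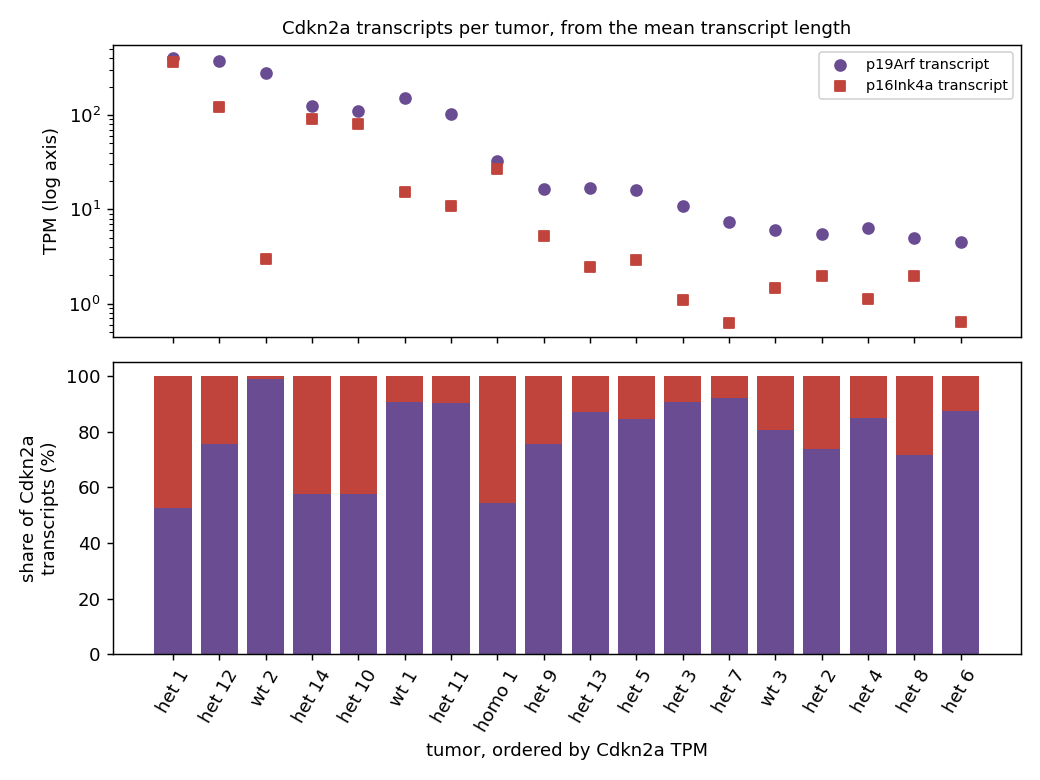
Upper panel: TPM of the p19Arf (circles) and p16Ink4a (squares) transcripts of Cdkn2a per tumor on a log axis. Lower panel: their shares in percent, with p19Arf at the bottom, and tumors ordered by total Cdkn2a; p16Ink4a reaches 47.4% in Cbfb(het) 1 and 1.05% in Cbfb(wt) 2.

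Cdkn2b (chr4:89306299-89311039, minus strand), whose start lies 16386 bases from that of the p19Arf transcript, had an SD of 0.71 log2 CPM. It was 5.41 to 60.2 TPM in the Cbfb(het) tumors with a median of 37.8. It was 37.0, 37.0 and 17.1 TPM in Cbfb(wt) 1, 2 and 3, and 39.3 TPM in Cbfb(homo). The 7 low-Trp53 tumors had 36.4 to 60.2 TPM, and 5 of the others lay within that range. Its r with Cdkn2a was 0.40 and its rho 0.47 (adjusted p of 0.161 and 0.119, permutation test), which did not pass.

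Mtap, on the other side of Cdkn2a, encodes the methionine salvage enzyme methylthioadenosine phosphorylase and is often deleted together with CDKN2A in human cancers. It was 100.5 TPM in Cbfb(wt) 2, 83.5 in Cbfb(het) 12, 82.9 in Cbfb(het) 1, 45.8 in Cbfb(het) 10, 44.2 in Cbfb(het) 14, 41.2 in Cbfb(wt) 1 and 27.7 in Cbfb(het) 11. In the other 11 tumors it was 10.8 to 29.1 TPM, so the groups overlapped only through Cbfb(het) 11 and Cbfb(homo) 1. Over 18 tumors Mtap had r of 0.87 and rho of 0.71 with Cdkn2a (adjusted p of 0.000495 and 0.00965, permutation test). Without the 2 tumors farthest from the median of Cdkn2a r was 0.79 (adjusted p = 0.00219, permutation test). After regression on the epithelial markers r was 0.66 and no longer passed (adjusted p = 0.104, permutation test). Without the 5 tumors of low Epcam r was 0.57 (adjusted p = 0.242, permutation test). Klhl9, farther along, which encodes a substrate adaptor of a ubiquitin ligase, was 20.96 to 42.2 TPM and ran opposite to Cdkn2a, with r of -0.69 and rho of -0.68 (adjusted p of 0.00513 and 0.0164, permutation test).

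Of 12 genes listed as neighbours or regulators of the locus, 3 were positively and 2 inversely correlated with Cdkn2a by r. The backgrounds for these directions over all genes were 16.8% and 19.4%. Beside Mtap and Klhl9 these were Twist1, a mesenchymal transcription factor (r = 0.79, adjusted p = 0.0018), Dmtf1, an activator of p19Arf (r = 0.56, adjusted p = 0.0458), and the Polycomb protein Cbx7 (r = -0.54, adjusted p = 0.0485), all by permutation test. Bmi1 and Ezh2, the other Polycomb repressors listed, did not pass. By rho Dmtf1 and Cbx7 did not pass (adjusted p of 0.136 and 0.0545, permutation test). Without Cbfb(het) 14, close to Cbfb(het) 10, the counts were 2 and 1, where 5903 of 18474 genes passed. As log2(TPM + 1) they were 4 and 0, where 37.9% of all genes passed. With residuals on the epithelial markers 0 of the 12 passed, against 1.08% of all genes, and without the 5 tumors of low Epcam 0 passed, against 1.74% of all genes.

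Among 30 other p53 targets, 7 were positively and 4 inversely correlated with Cdkn2a, where 16.8% and 19.4% of all genes passed, so their share was near the background. Their median r was 0.14 against -0.02 over all genes. Of smallest p among the positive were Ak1, an adenylate kinase (r = 0.71, adjusted p = 0.00544), Apaf1, the scaffold of the apoptosome (r = 0.71, adjusted p = 0.00611), the secreted factor Gdf15 (r = 0.66, adjusted p = 0.0104) and the phospholipid transfer protein Pltp (r = 0.62, adjusted p = 0.0247), by permutation test. The inverse ones were Pidd1, a death domain protein that activates caspase-2 (r = -0.82, adjusted p = 0.00109), the mitotic protein Psrc1 (r = -0.70, adjusted p = 0.00824), the DNA damage sensor Xpc (r = -0.62, adjusted p = 0.0141) and Trp53inp1, a nuclear cofactor of p53 (r = -0.60, adjusted p = 0.0278), by permutation test. The other positive ones were Polk, Sesn1 and Cd80. By rho the counts were 5 and 3, against 28.7% of all genes. Without Cbfb(het) 14 they were 4 and 4, against 5903 of 18474 genes. As log2(TPM + 1) they were 12 and 1, a share near the 37.9% of all genes on that scale. There 5372 of 18474 genes passed as positive and 1628 as inverse. With residuals on the epithelial markers, or without the 5 tumors of low Epcam, 0 of the 30 passed, in settings where few genes of any kind did.

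The 16 regulators of p53 gave 2 positive and 1 inverse correlation by r, a smaller share than the 36.3% over all genes. By rho the counts were 0 and 2, against 28.7% of all genes. Without Cbfb(het) 14 they were 1 and 1, against 5903 of 18474 genes. As log2(TPM + 1) they were 7 and 0, a share near the 37.9% of all genes on that scale. There 5372 of 18474 genes passed as positive and 1628 as inverse. Ppm1d, the phosphatase Wip1 that switches off p53 signalling and is itself a p53 target, was inverse (r = -0.78, adjusted p = 0.00164). The ubiquitin ligases Cop1 (r = 0.62, adjusted p = 0.0239) and Trim24 (r = 0.56, adjusted p = 0.0447) were positive, by permutation test. Of the p53 relatives, Trp73 was inverse by r (-0.55, adjusted p = 0.0438) but not by rho (-0.16, adjusted p = 0.661), by permutation test, and Trp63 did not pass. Without the 5 tumors of low Epcam both signs turned: r was 0.87 for Trp63 (adjusted p = 0.0455) and 0.49 for Trp73 (adjusted p = 0.353), by permutation test.

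On the RB axis, where p16Ink4a acts, 4 of 18 genes were positively correlated and 1 inversely, below the 36.3% over all genes. By rho the counts were 2 and 1, against 28.7% of all genes. Without Cbfb(het) 14 they were 3 and 1, against 5903 of 18474 genes. As log2(TPM + 1) they were 8 and 0, a share near the 37.9% of all genes on that scale. There 5372 of 18474 genes passed as positive and 1628 as inverse. Those past the threshold by r were the D cyclins Ccnd3 (r = 0.72, adjusted p = 0.00385) and Ccnd2 (r = 0.69, adjusted p = 0.00981), the transcription factor E2f1 (r = 0.67, adjusted p = 0.0124), the kinase Cdk6 (r = 0.60, adjusted p = 0.0319) and, inversely, E2f2 (r = -0.63, adjusted p = 0.0203), by permutation test. Cdk4, Rb1 and Ccnd1 did not pass. None of 10 proliferation genes passed, the closest being Mki67 (r = -0.40), Aurkb (r = -0.33) and Birc5 (r = -0.30), with adjusted p of 0.179 to 0.341 by permutation test. The median r of these 10 genes was -0.21, against -0.02 over all genes. It was -0.59 without the 5 tumors of low Epcam, against 0.02 over all genes. Without the 2 tumors farthest from the median of Cdkn2a it was -0.48, against 0.01. In the other settings it was -0.33 to 0.12. In all of these lists 0 genes passed with residuals on the epithelial markers; without the 5 tumors of low Epcam, the exception was Trp63.

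The comparison by genotype asked whether these genes differ between tumors labelled Cbfb(het) and Cbfb(wt). Cbfb itself was 12.8 to 71.1 TPM in the Cbfb(het) tumors with a median of 27.9. It was 35.6, 12.03 and 22.1 TPM in Cbfb(wt) 1, 2 and 3, and 10.8 TPM in the Cbfb(homo) tumor, the lowest value. Cbfb RNA in Cbfb(het) and Cbfb(wt) tumors overlapped, at a log2 fold change of 0.61 ± 0.43 (SE; adjusted p = 0.999, edgeR quasi-likelihood test). This gene-level value does not check the labels, as the altered stretch is not stated.

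None of the 9 genes passed the test between 14 Cbfb(het) and 3 Cbfb(wt) tumors, and the ranges of all 9 overlapped. No gene of 18475 passed the edgeR quasi-likelihood test (0% called), with 623 at an unadjusted p under 0.05, and DESeq2 and limma-voom also called 0. The log2 fold change, Cbfb(het) minus Cbfb(wt), was 0.62 ± 0.87 (SE) for Trp53 and -0.15 ± 1.38 for Cdkn2a. Both errors exceed their differences, and each genotype held low-Trp53 tumors. Eda2r had the smallest p of the 9, with -1.21 ± 0.62 (adjusted p = 0.999, edgeR), and a two-sided exact permutation test of log2(TPM + 1) over 680 splits gave p = 0.0588, where the smallest possible is 0.00147. For Phlda3 it was 0.69 ± 0.48, for Cdkn2b 0.41 ± 0.40, for Ccng1 0.39 ± 0.34, for Cdkn1a 0.39 ± 0.65, for Mdm2 0.10 ± 0.19 and for Zmat3 -0.21 ± 0.20. Adjusted p was 0.999 for each of them by edgeR. Without Cbfb(wt) 2 the value of Cdkn2a became 0.65 and that of Cdkn1a -0.0068. With the epithelial markers as a covariate that of Trp53 became -0.28. Without the 5 tumors of low Epcam edgeR again called 0 genes, with 992 at an unadjusted p under 0.05. Cdkn2a was then at -1.92 (adjusted p = 0.777, edgeR), Eda2r at -0.34 and Phlda3 at 0.25. The only Cbfb(wt) tumors left were Cbfb(wt) 1 and Cbfb(wt) 3, whose Cdkn2a was 164.7 and 7.58 TPM. The common biological coefficient of variation was 0.691, which limits what 3 Cbfb(wt) tumors can show.

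**Figure D5:**
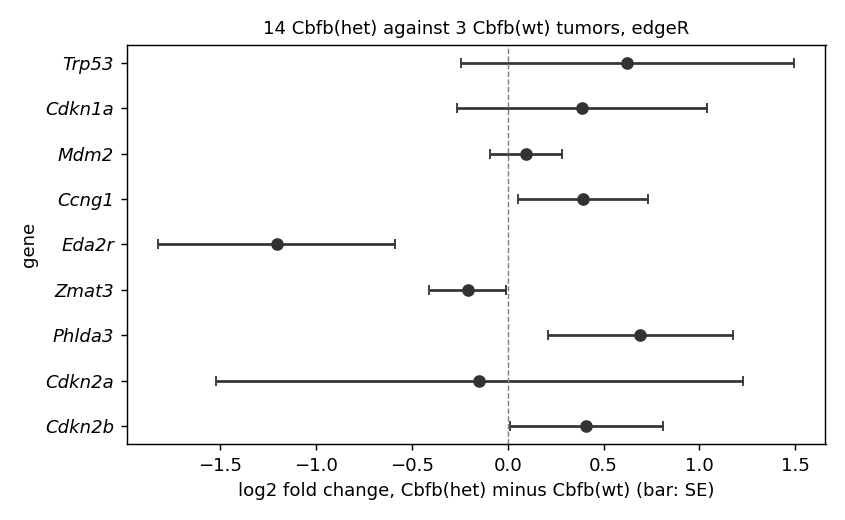
Log2 fold change of the 9 genes between 14 Cbfb(het) and 3 Cbfb(wt) tumors from edgeR, with bars of 1 SE. The values run from -1.21 for Eda2r to 0.69 for Phlda3, and the bar of Cdkn2a is the widest, at 1.38 on each side of -0.15.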

How the data were processed

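Per the labels' protocols, Trizol was used on fresh tumors and the TruSeq Stranded mRNA kit on their RNA. The authors deposited, per the file headers, RSEM expected counts (estimated reads per gene, not normalized), TPM, and mean and effective transcript lengths for each tumor. Tools named in the submitters' processing notes are RSEM 1.3.1 and STAR 2.7.0f, with build mm10. Strand setting and annotation release: not given in the sources used here. The 55450 gene IDs, and the lengths of all 34471 genes with 1 transcript, matched GENCODE M21.

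Expected counts were rounded (6.20% to 7.19% of values per tumor were not whole). Groups follow the Cbfb label. Replicate numbers were given in accession order, and Cbfb(homo), with 1 tumor, entered the correlations over tumors but no test between genotypes, apart from an alternative fit of all 18 tumors. Cbfb(het) and Cbfb(wt) were compared with edgeR 4.0.16 in R 4.3.3 (filterByExpr, TMM, robust quasi-likelihood test, Benjamini-Hochberg over 18475 genes, threshold 0.05). DESeq2 1.42.0 and limma 3.58.1 (voom) were alternatives. Correlations used log2 CPM (prior count 2) with 100000 permutations, or all orders for fewer tumors than 10, two-sided, adjusted over 18474 genes. Where sorted levels had a gap over 25% of their range, tumors were analysed in separate runs. Both procedures were tested on simulated data, in which genes were drawn independently apart from those set to change or to follow the tested gene. In these tumors many genes moved together, so that setting differs from the data. P-values measure the spread between tumors that the series gives to separate mice. The pair of nearly alike Cbfb(het) libraries entered the main tests as separate tumors. Whether these libraries are independent was not tested, so p-values that include both may rest on fewer independent tumors than stated. Shares of Cdkn2a transcripts were computed from the deposited mean length and the annotated lengths.

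The members and gene lists were chosen with earlier results of these data known. Named beside the members were Cbfb, up to 8 genes of each list that passed (otherwise the 3 of smallest p), and the 3 genes most like each member. The neighbours Mtap and Klhl9 belong to a list. Wrap53, Polk, Sesn1, Cd80 and the unpassed Bmi1, Ezh2, Cdk4, Rb1, Ccnd1 and Trp63 were named after their values were seen. Alternatives were other tools, filters, scales, marker covariates and left-out tumors; regression on fibroblast and mesenchymal markers and removal of the 5 tumors with Epcam under 200 TPM were chosen after seeing the data.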

Additional observations from a re-analysis of the deposited data

How the results depend on the processing

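No paired analysis was possible because the replicate numbers were given in accession order and pair no tumors. Between Cbfb(het) and Cbfb(wt), 0 genes were called in every setting except 1 with no filter on low counts and 1 with all 18 tumors in the fit, and 0 of the 9 members in any. Leaving out 1 tumor gave log2 fold changes of 0.14 to 1.84 for Trp53, -0.0068 to 1.45 for Cdkn1a and -0.83 to 0.65 for Cdkn2a. The lowest for Cdkn1a and the highest for Cdkn2a came without Cbfb(wt) 2. Trp53 turned to -0.28 with epithelial markers as covariate, and Mdm2 to -0.22 as log2(TPM + 1) and -0.0145 without the 5 tumors of low Epcam; the median over genes moved from 0.02 on the log2 CPM to -0.12 on the log2(TPM + 1) scale.

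The 6700 genes correlated with Cdkn2a by r became 200 with residuals on epithelial markers, 453 on fibroblast and mesenchymal markers, and 321 without the 5 tumors of low Epcam. With log2(TPM + 1) the split over all genes became 5372 positive and 1628 inverse, from 3109 and 3591. On that scale 2 members passed, Phlda3 (r = 0.55) and Cdkn2b (r = 0.54). Only 1 passed in Cbfb(het) tumors alone (Cdkn1a), where 5468 of 18474 genes did. With residuals on proliferation genes 1 member passed (Ccng1, r = -0.58), where 7647 of 18474 genes did. Signs of r also turned: Mdm2 to -0.14 with epithelial residuals and -0.11 without the 5 tumors, Cdkn1a to 0.22 without them, Eda2r to 0.12 as log2(TPM + 1) and 0.0024 with epithelial residuals, and Zmat3 to -0.0756 with epithelial residuals.

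For Trp53, 152 genes passed in the run of 7 with proliferation residuals and 404 in the run of 11 as log2(TPM + 1). In the run of 7, r turned for Cdkn1a (-0.13), Cdkn2a (0.22) and Cdkn2b (0.35) with fibroblast and mesenchymal residuals, Zmat3 (0.72) with epithelial residuals, Cdkn2b (0.0905) as log2(TPM + 1) and Eda2r (-0.0301) without Cbfb(het) 14. In the run of 11, r turned as log2(TPM + 1) for Mdm2 (0.59), Ccng1 (0.42), Eda2r (0.41) and Zmat3 (0.60). Epithelial residuals turned Mdm2 (0.0802), Eda2r (0.0304) and Zmat3 (0.15), and leaving out the 2 tumors farthest from the median turned Ccng1 (0.0835), Zmat3 (0.0408) and Cdkn2a (-0.0285). The cause was not tested. The tumors with high Cdkn2a and low targets numbered 0 as log2(TPM + 1), 7 with a target limit of 0, and 0 by the median over targets. Depth limits Eda2r, from 17 counts, and the transcript shares of tumors with few Cdkn2a counts.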

Other observations

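The genes whose order over the 18 tumors was most like each member's were mostly outside the p53 pathway. By Spearman's rho over 18 tumors, Trp53 was most like Snupn (0.94), Eml2 (0.93) and March9 (0.91), and Cdkn2a was most like Rnf19b (0.94), Bnip2 (0.94) and Ppp1r18 (0.93). Cdkn1a was most like Shb (0.95), Akirin1 (0.92) and Tuft1 (0.92). Phlda3 was most like Dpm2 (0.91), Tbc1d10a (0.90) and the clone-named gene CAAA01066123.1 (0.90). Zmat3 was most like Prag1 (0.85), Tmem185a (0.71) and Manba (0.70).

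Among the other members, Mdm2 was most like Gys1 (0.81), Gclc (0.80) and Tes (0.79), Eda2r like Sfmbt1 (0.82), Irak4 (0.81) and Hltf (0.81), and Cdkn2b like Itprip (0.79), Leprotl1 (0.73) and Akt2 (0.73). Ccng1 was most like Ephb1 (0.78), Tdrp (0.78) and Trp53inp1 (0.77), the last of which is a p53 target. These are the highest values among tested genes with mean log2 CPM of 1 or more. Gene models with Gm or Rik symbols were left out. The values come from shared libraries and are given as a description.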
